A study of Mus musculus with 9 samples.

Results

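Urea cycle and ammonia handling genes were followed in the livers of 9 mice fed 1 of 3 diets. The set holds 10 genes named by their function: Cps1, Otc, Ass1, Asl, Arg1, Nags, Slc25a15, Slc25a13, Gls2 and Glud1. Each gene was represented by the probe set annotated to its symbol alone, and where there were several, by the one with the highest mean signal over the 9 arrays. This gave 9 of the 10 genes, out of 18193 genes with such a probe set, and all 9 passed the filter on dim signals that left 12466 genes tested. Gls2, the liver glutaminase that releases ammonia from glutamine, had no such probe set and was not analysed here.

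The mice were females of the outbred stock Crlj:CD1(ICR), bought at 9 weeks of age and quarantined for 1 week, and carried no genetic change that the labels name. For 2 weeks, 3 mice ate a powdered diet with 5000 ppm permethrin, 3 ate the diet with 5000 ppm clofibrate and 3 ate it with 0 ppm of either chemical as controls. Permethrin is a pyrethroid insecticide, and clofibrate is a lipid-lowering fibrate whose class activates the nuclear receptor PPAR alpha. The free-text description of treated samples says rat, while organism, source and strain say mouse. Each array measured RNA from 1 liver, with no pooling, and the unit throughout is the MAS5 signal, a linear intensity that the authors had scaled per array.

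The urea cycle turns ammonia, which is toxic to the brain, into urea for excretion, and in mammals the complete cycle runs mainly in hepatocytes. Its first steps lie in the mitochondrion: Nags makes N-acetylglutamate, the activator without which Cps1 cannot join ammonia and bicarbonate, and Otc adds the product to ornithine to give citrulline. In the cytosol Ass1 and Asl add nitrogen from aspartate and release arginine, and Arg1 splits arginine into urea and ornithine, while the carriers Slc25a15 and Slc25a13 move ornithine, citrulline and aspartate across the mitochondrial membrane. Glud1 releases ammonia from glutamate in the mitochondrion. Hepatocytes near the portal vein carry most of this pathway, and those around the central vein capture remaining ammonia as glutamine.

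Of the 5 genes that fell with clofibrate, 3 were matched in the RefSeq promoter table, build GRCm38.p6, and their windows are shown because these genes moved together. They lie at chrX:10252055-10252229 on the plus strand for Otc, chr8:22398622-22398871 on the minus strand for Slc25a15 and chr14:34310477-34310726 on the plus strand for Glud1, and each ends at the base before the first annotated base of its gene. For Slc25a15, which has 2 windows in the table, the outermost was taken.
Otc: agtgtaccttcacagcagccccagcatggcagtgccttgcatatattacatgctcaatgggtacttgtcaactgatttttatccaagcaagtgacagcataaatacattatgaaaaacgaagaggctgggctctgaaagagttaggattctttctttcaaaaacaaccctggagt
Slc25a15: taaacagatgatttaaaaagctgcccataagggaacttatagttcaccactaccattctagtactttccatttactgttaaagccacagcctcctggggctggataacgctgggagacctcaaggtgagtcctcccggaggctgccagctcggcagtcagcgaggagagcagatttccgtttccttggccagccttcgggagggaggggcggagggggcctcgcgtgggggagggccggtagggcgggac
Glud1: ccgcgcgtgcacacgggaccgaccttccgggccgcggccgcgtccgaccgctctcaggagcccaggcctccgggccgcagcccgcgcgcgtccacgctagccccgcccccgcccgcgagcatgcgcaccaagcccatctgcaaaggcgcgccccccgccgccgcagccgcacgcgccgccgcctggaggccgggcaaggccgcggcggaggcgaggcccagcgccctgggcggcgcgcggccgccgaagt
Capitals would mark a motif match, and there were 0. The motifs searched, on both strands, were the C/EBP-type TTGCNNAA, the HNF4-type CAAAGTCCA, the cyclic AMP response element TGACGTCA and the DR1 element bound by PPAR alpha with its partner RXR, which is AGGTCA repeated after 1 base. Over 32851 promoter windows of 250 bases, 9.56% held the first of these, 0.384% the HNF4-type motif, 1.55% the cyclic AMP element and 0.0335% the DR1 element. In windows cut to their first 175 bases, the length available for Otc, the shares were 7.22%, 0.247%, 0.548% and 0.0213%. The bases at the gene end of each window were left out of these shares. The 3 sequences had G and C contents of 41.7%, 57.6% and 82%, against a median of 52.4% over all windows. Ass1, Nags and Slc25a13 also matched the table and held 0 matches, that of Slc25a13 in the 119 bases before its first annotated base, and 6 members matched in all. The absence of a match says only that these letters are not in these windows.

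Some array measures differed between the groups. The median signal overlapped, at 14.3 to 15.5 with permethrin, 13.4 to 17.9 with clofibrate and 15.2 to 17.4 in controls. The highest signal on an array was 12791.6 to 13408.5 with permethrin, 10713.6 to 12057.7 with clofibrate and 14386.9 to 14898.7 in controls. The 18 hybridization control probe sets, which read transcripts added to each array, averaged 9.98 ± 0.18 on permethrin arrays, 9.79 ± 0.12 on clofibrate arrays and 10.13 ± 0.16 on control arrays, on the log2(signal + 3.35) scale (SD, n = 3). When arrays were instead scaled to these controls, the median gene shifted by 0.15 in the permethrin to control comparison, by 0.33 in the clofibrate to control comparison and by -0.19 between the 2 treated groups. All 9 measured hepatocyte markers passed the filter, Alb among them. All 10 macrophage markers passed it too, so passing does not identify the tissue. Alb had mean signals of 8509.1 with permethrin, 7032.7 with clofibrate and 9351.5 in controls. In bulk liver RNA, fewer cells of a type and less RNA per cell cannot be told apart.

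Clofibrate was compared with control to see how a fibrate diet alters these genes. Cps1, Otc, Asl, Slc25a15 and Glud1 fell in RNA signal, by 1.49-fold to 2.09-fold. They encode the mitochondrial enzymes Cps1 and Otc, the cytosolic enzyme Asl, an ornithine carrier and a source of ammonia. Nags, Ass1, Arg1 and Slc25a13 did not pass the test. Under scaling to the hybridization controls Asl alone was called. In all, 5 of 9 members fell and 0 rose at a limma adjusted p under 0.05, where 3.8% of all tested genes fell and 3.22% rose. The median log2 change of the members was -0.58, beside -0.04 over all tested genes, and in 6 of 9 members the 3 clofibrate signals lay apart from the 3 control signals, as they did for 27.2% of all genes. Many bright genes were lower on the clofibrate arrays: of 362 tested genes with a mean signal above 3000 in this comparison, 30.9% fell and 5.8% rose, with a median log2 change of -0.26. Of the 5 members this bright, 4 fell.

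Permethrin was compared with control to see how the insecticide diet alters the same genes. All 9 members had a log2 change below 0, between -0.69 and -0.08, and 0 of 9 passed the limma threshold in either direction, where 0.85% of all tested genes fell and 1.28% rose. Below 0 is also where 56.3% of all tested genes lay. Of 368 tested genes with a mean signal above 3000 in this comparison, 72.6% lay below 0, with a median log2 change of -0.12. There were 5 members this bright. An unadjusted p under 0.05 was seen for 5 members, Cps1, Otc, Asl, Nags and Slc25a15, and for 15.8% of all tested genes in either direction. The median log2 change of the members was -0.36, beside -0.04 over all tested genes. In 6 members the permethrin and control signals did not overlap, as for 22.7% of all genes. The 2 comparisons with control share the 3 control arrays.

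**Figure D1:**
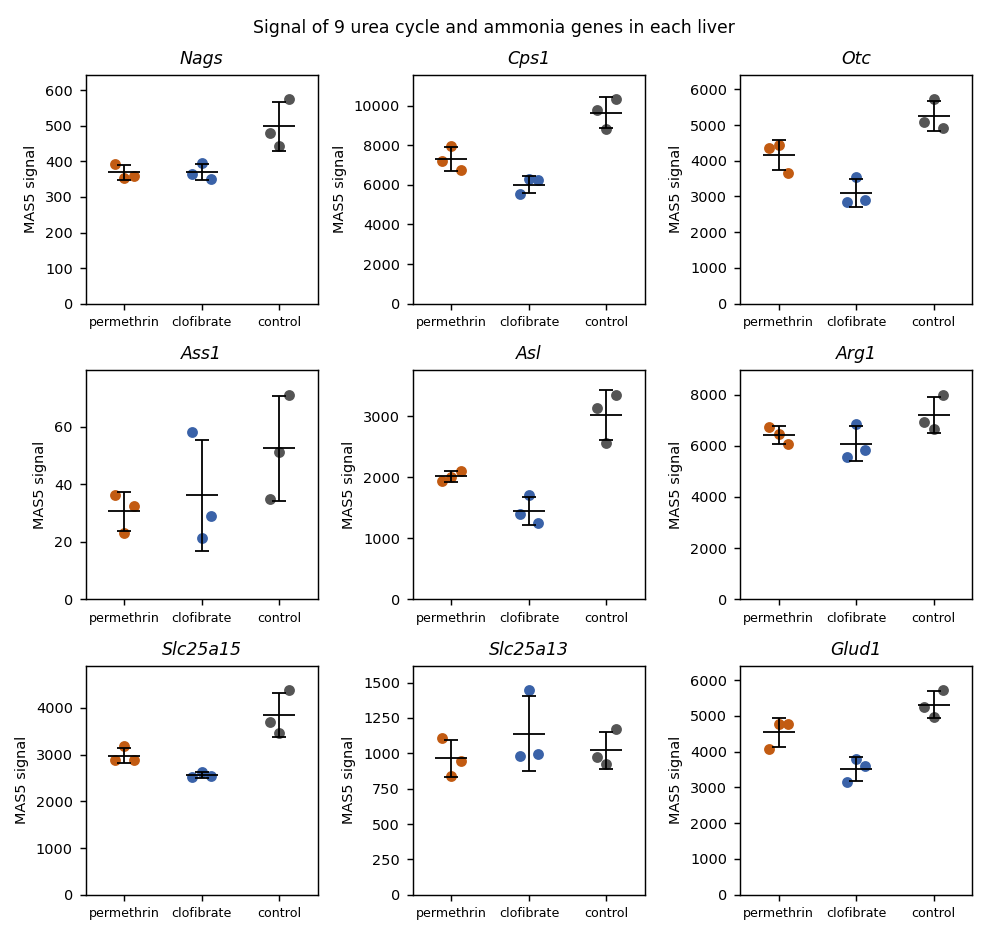
MAS5 signal (linear intensity, axis from 0) of 9 genes in each liver, as 1 point per mouse, for permethrin, clofibrate and control, with a bar at the mean and whiskers of 1 SD (n = 3). The 3 clofibrate points of Cps1, Otc, Asl, Slc25a15, Nags and Glud1 lie below all 3 control points, whereas those of Arg1, Slc25a13 and Ass1 overlap them.

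The steps that start the cycle came first. Cps1 (probe set 1455540_at), the carbamoyl phosphate synthetase, had signals of 7218, 7957 and 6759 with permethrin, 5518, 6288 and 6235 with clofibrate, and 9777, 8793 and 10326 in controls. All 3 groups stood apart, with clofibrate lowest and permethrin between. Its log2 change with clofibrate was -0.68 ± 0.10 (SE, n = 3 per group), a fall of 1.60-fold (limma adjusted p = 0.00203), and with permethrin -0.40 ± 0.10 (limma adjusted p = 0.0746). The clofibrate call ended when each array was centred on its median (-0.59, limma adjusted p = 0.0675) and under scaling to the hybridization controls (-0.35, limma adjusted p = 0.0915).

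Otc (probe set 1420525_a_at), the ornithine transcarbamylase, had signals of 4362, 4450 and 3666 with permethrin, 2845, 3552 and 2890 with clofibrate, and 5083, 5726 and 4925 in controls. Again no 2 groups overlapped and clofibrate was lowest. It fell 1.70-fold with clofibrate, a log2 change of -0.76 ± 0.12 (limma adjusted p = 0.00304), and the log2 change with permethrin was -0.34 ± 0.12 (limma adjusted p = 0.215). Under scaling to the hybridization controls the clofibrate change was -0.43 (limma adjusted p = 0.112). Nags (probe set 1425230_at), which makes the activator of Cps1, had 392.9, 354.4 and 358.6 with permethrin, 365, 394.8 and 351.1 with clofibrate, and 478.4, 442.5 and 574.8 in controls. Both treated groups of Nags lay below every control and overlapped each other, with log2 changes of -0.43 ± 0.12 for permethrin and -0.42 ± 0.12 for clofibrate (limma adjusted p = 0.138 and 0.0813). With array weights the clofibrate value was -0.45 and passed (limma adjusted p = 0.0302).

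In the cytosol, Asl showed the largest change among members past the threshold. Asl (probe set 1448350_at), argininosuccinate lyase, which releases arginine, had signals of 1937, 2002 and 2109 with permethrin, 1394, 1706 and 1242 with clofibrate, and 3132, 2562 and 3354 in controls. The 3 groups did not overlap, and the clofibrate mean of 1447 ± 236 was less than that of permethrin, 2016 ± 87.1, and of controls, 3016 ± 409 (SD, n = 3). It fell 2.09-fold with clofibrate, a log2 change of -1.06 ± 0.13 (limma adjusted p = 0.000937). The permethrin log2 change was -0.57 ± 0.13 (limma adjusted p = 0.0658). Asl was called for clofibrate in all 27 alternative settings, with log2 changes from -1.19 to -0.73.

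Arg1 (probe set 1419549_at), the arginase that yields urea, had signals of 6747, 6454 and 6061 with permethrin, 5569, 6845 and 5844 with clofibrate, and 6932, 6671 and 8001 in controls. Its groups overlapped. The log2 change was -0.16 ± 0.10 with permethrin and -0.24 ± 0.10 with clofibrate (limma adjusted p = 0.54 and 0.227), with 95% intervals from -0.39 to 0.07 and from -0.47 to -0.02, and under scaling to the hybridization controls the clofibrate value turned to 0.09.

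Ass1, argininosuccinate synthetase, was read by a dim probe set, 1459937_at. Its signals were 36.3, 23.2 and 32.3 with permethrin, 58.1, 21.3 and 29.1 with clofibrate, and 34.9, 51.3 and 71.2 in controls, so the groups overlapped and varied up to 2.72-fold within clofibrate. The log2 changes were -0.69 ± 0.34 with permethrin and -0.55 ± 0.34 with clofibrate (limma adjusted p = 0.417 and 0.431). A brighter probe set, 1416239_at, is annotated both to Ass1 and to the gene model Gm5424, so it is no member and no gene is named from it. That probe set had 5424, 5974 and 4237 with permethrin, 4188, 4555 and 5038 with clofibrate, and 7925, 6873 and 8420 in controls. Each treated group lay below all controls there, with log2 changes of -0.58 ± 0.13 for permethrin and -0.75 ± 0.13 for clofibrate (limma adjusted p = 0.0593 and 0.00701).

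Of the 2 mitochondrial carriers, 1 fell with clofibrate. Slc25a15 (probe set 1420967_at), which exchanges ornithine for citrulline, had signals of 2884, 3177 and 2885 with permethrin, 2520, 2634 and 2553 with clofibrate, and 3696, 3471 and 4382 in controls. The 3 groups stood apart and clofibrate varied least, by 1.05-fold. It fell 1.49-fold with clofibrate, a log2 change of -0.58 ± 0.10 (limma adjusted p = 0.0069), and the log2 change with permethrin was -0.36 ± 0.10 (limma adjusted p = 0.119). The clofibrate call ended in 6 of 27 alternative settings, among them centring on the array median (-0.49, limma adjusted p = 0.134) and scaling to the hybridization controls (-0.24, limma adjusted p = 0.25).

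Slc25a13 (probe set 1449481_at), called citrin, which supplies aspartate to the cytosol for Ass1, had 1105, 841.4 and 946.6 with permethrin, 978.3, 1446 and 992.4 with clofibrate, and 974.1, 922.3 and 1169 in controls. Its groups overlapped, and clofibrate replicate 2 stood above the other 8 arrays. The log2 change was -0.08 ± 0.17 with permethrin and 0.14 ± 0.17 with clofibrate (limma adjusted p = 0.873 and 0.72). Neither direction held in every setting: scaling to the hybridization controls gave 0.06 for permethrin, and leaving out clofibrate replicate 2 gave -0.04 for clofibrate.

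Glud1 (probe set 1448253_at), glutamate dehydrogenase, had signals of 4063, 4778 and 4763 with permethrin, 3148, 3795 and 3609 with clofibrate, and 5258, 4961 and 5718 in controls. No 2 groups overlapped, and the gap from permethrin to control was small. It fell 1.51-fold with clofibrate, a log2 change of -0.60 ± 0.10 (limma adjusted p = 0.00694), beside -0.23 ± 0.10 with permethrin (limma adjusted p = 0.367). Centring on the array median gave -0.51 for clofibrate (limma adjusted p = 0.151) and scaling to the hybridization controls -0.26 (limma adjusted p = 0.191).

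**Figure D2:**
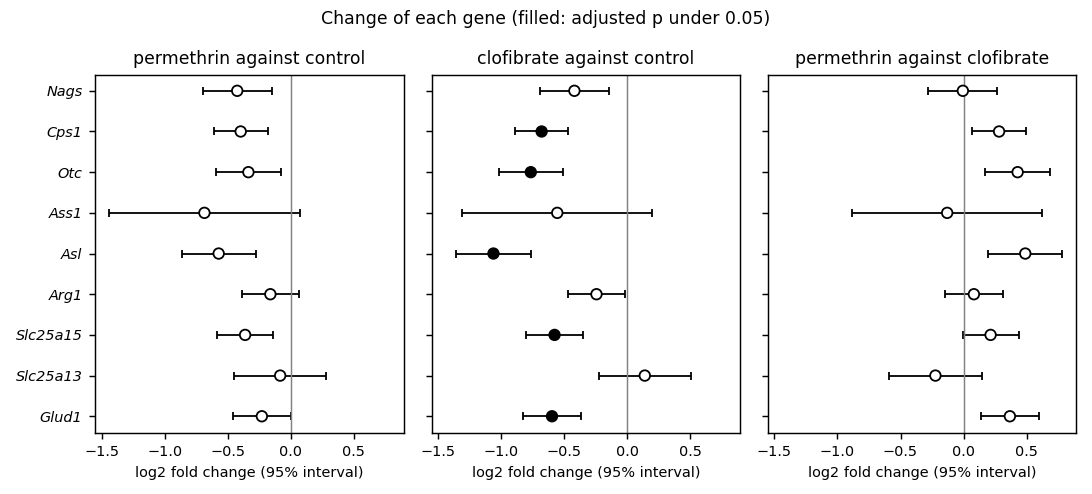
Log2 fold change of 9 genes with its 95% interval for each treated diet against control and for the 2 treated diets against each other (permethrin over clofibrate), where filled points passed a limma adjusted p of 0.05. Filled points appear for 5 genes with clofibrate, and 0 genes passed in the other panels; under scaling to the hybridization controls the clofibrate value of Arg1 and the permethrin value of Slc25a13 lie above 0.

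Permethrin was set against clofibrate to ask whether the 2 diets differed in these genes. Of 9 members 0 passed the limma threshold, where 0.265% of all tested genes were lower and 0.473% higher with permethrin, and 4 members had an unadjusted p under 0.05, as did 13% of all tested genes. On the probe sets that represent them, Cps1, Otc, Asl, Slc25a15 and Glud1 had every permethrin signal above every clofibrate signal. Such a separation, in either direction, was seen for 18.1% of all genes. Many bright genes were higher with permethrin than with clofibrate. Of 1122 tested genes with a mean signal above 1000 in this comparison, 36% had a log2 difference below 0. Above 3000 this share was 25.9% of 347 genes, with a median log2 difference of 0.13. The other Glud1 probe set, 1416209_at, also separated. The bright second Otc probe set, 1436615_a_at, did not, with 3026 in clofibrate replicate 1 and 3009 in permethrin replicate 3. The dim Otc probe set 1425540_at overlapped, as did 1420966_at of Slc25a15 (-0.42 ± 0.27, limma adjusted p = 0.594). The log2 difference was 0.49 for Asl, with a 95% interval from 0.19 to 0.78 (limma adjusted p = 0.155), and 0.43 for Otc, with an interval from 0.17 to 0.68 (limma adjusted p = 0.151). For Glud1 it was 0.37, from 0.14 to 0.60, and for Cps1 0.28, from 0.07 to 0.49 (limma adjusted p = 0.174 and 0.268). For Slc25a15 it was 0.21, from -0.01 to 0.44 (limma adjusted p = 0.434). Nags had a log2 difference of -0.01, with an interval from -0.28 to 0.27 (limma adjusted p = 0.991), Arg1 one of 0.08, from -0.15 to 0.31, Slc25a13 one of -0.22, from -0.59 to 0.14, and Ass1 one of -0.13, from -0.89 to 0.62. A difference between the 2 diets was not shown for any member by this test, nor was it shown that they act alike.

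How far the clofibrate falls depended on the scaling of the arrays was measured in 5 other ways. Quantile normalization and cyclic loess, which adjust bright and dim signals separately, each called 5 members. Centring each array on its median called Asl and Otc, and scaling to the hybridization controls called Asl alone, with the members' median log2 change at -0.24, or -0.53 relative to the median gene. Over all tested genes that last scaling called 89 lower and 1034 higher with clofibrate, in place of 474 and 402, and with permethrin 22 lower and 143 higher in place of 106 and 160. Scaling each array to the mean log2 signal of the 9 hepatocyte markers, chosen after seeing the data, called Cps1 (-0.36), Otc (-0.45) and Asl (-0.74), with limma adjusted p of 0.0126, 0.0214 and 0.00428. This scaling moved the median gene to 0.28 with clofibrate, beside a members' median of -0.26. Relative to those markers the 3 clofibrate values of 5 members did not overlap the controls, with Cps1, Otc, Asl and Glud1 lower and Slc25a13 higher (0.46, limma adjusted p = 0.0707), and 36.3% of all tested genes stood apart in the same way. Arg1 stood at 0.08 relative to them.

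**Figure D3:**
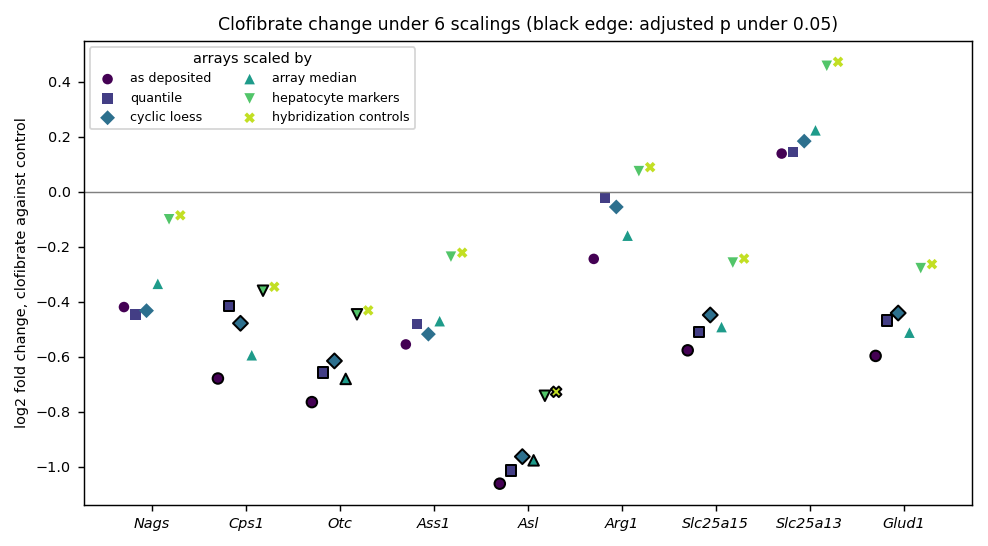
Log2 fold change of 9 genes for clofibrate against control when arrays were scaled in 6 ways, with 1 marker shape per scaling and a black edge where the limma adjusted p was under 0.05. Asl has a black edge under all 6, while Arg1 crosses 0 under scaling to hepatocyte markers or hybridization controls.

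Against control, members with more than 1 probe set changed in the same direction where the signal was bright. A second Otc probe set, 1436615_a_at, had log2 changes of -0.43 ± 0.12 with permethrin and -0.74 ± 0.12 with clofibrate (limma adjusted p = 0.111 and 0.00424). The second Glud1 probe set, 1416209_at, had -0.19 ± 0.10 and -0.39 ± 0.10 (limma adjusted p = 0.458 and 0.0536), so the Glud1 call with clofibrate rests on 1 of its 2 probe sets. A dimmer Slc25a15 probe set, 1420966_at, with clofibrate signals of 256.1, 250.4 and 200.6 and control signals of 196.8, 214.6 and 372.7, overlapped between these groups (-0.10 ± 0.27, limma adjusted p = 0.895). The dim Otc probe set 1425540_at overlapped as well (-0.19 ± 0.21, limma adjusted p = 0.699).

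Other genes of ammonia, glutamine and urea metabolism gave few calls. Of 27 such genes 20 were tested. With permethrin 1 fell and 0 rose (median log2 change -0.32), and with clofibrate 2 fell and 0 rose (median -0.12). The shares of all tested genes that fell were 0.85% and 3.8%. Prodh, which starts proline breakdown, had 646, 776.2 and 566.4 with permethrin, 484.7, 397.4 and 394.4 with clofibrate, and 1449, 989.7 and 1243 in controls. It fell with both diets and its 3 groups did not overlap, with log2 changes of -0.88 ± 0.16 and -1.51 ± 0.16 (limma adjusted p = 0.022 and 0.000393). Car5a, the mitochondrial carbonic anhydrase that supplies bicarbonate to Cps1, had 914.5, 937.1 and 698 with permethrin, 699.3, 884.3 and 717.4 with clofibrate, and 1047, 1239 and 1316 in controls. Both treated groups lay below every control, and it fell with clofibrate (-0.65 ± 0.15, limma adjusted p = 0.0267), with -0.50 ± 0.15 for permethrin (limma adjusted p = 0.138). Glul, the glutamine synthetase of pericentral hepatocytes, had log2 changes of -0.28 ± 0.11 with permethrin and -0.08 ± 0.11 with clofibrate (limma adjusted p = 0.261 and 0.758). Oat, ornithine aminotransferase, had 0.00 ± 0.25 and -0.46 ± 0.25, and the ammonia transporter Rhbg 0.11 ± 0.23 and 0.17 ± 0.23, all short of the threshold.

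Carriers and regulators gave 0 calls in either comparison with control. Of 10 tested amino acid carriers, 10 lay below 0 with permethrin and 9 with clofibrate, with median log2 changes of -0.47 and -0.51, and 4 and 3 had an unadjusted p under 0.05, beside 15.8% and 21% of all tested genes. The glutamine carrier Slc38a3 had log2 changes of -0.53 ± 0.18 and -0.51 ± 0.18 (limma adjusted p = 0.217 and 0.147), and the arginine carrier Slc7a2 -0.59 ± 0.19 and -0.05 ± 0.19 (limma adjusted p = 0.189 and 0.928). Among 15 regulators, 5 in each comparison had an unadjusted p under 0.05, and the medians were -0.22 with permethrin and 0.04 with clofibrate. Hnf4a, a hepatocyte transcription factor that drives Otc among many liver genes, had 2381, 3161 and 3035 with permethrin, 2112, 2161 and 2240 with clofibrate, and 2663, 2802 and 3215 in controls. Its clofibrate signals lay below all others (-0.41 ± 0.12, limma adjusted p = 0.0757) and its permethrin signals overlapped the controls (-0.02 ± 0.12, limma adjusted p = 0.958). Cebpa, a liver transcription factor with known sites in urea cycle genes, had -0.57 ± 0.15 with permethrin and -0.25 ± 0.15 with clofibrate (limma adjusted p = 0.104 and 0.424). The glucagon receptor Gcgr had 0.00 ± 0.13 and 0.09 ± 0.13, and Klf15, which promotes amino acid breakdown, -0.22 ± 0.18 and -0.17 ± 0.18, none of them past the threshold.

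Some enzymes of amino acid breakdown, which feeds ammonia into the cycle, fell. With permethrin 5 of 33 tested genes fell and 0 rose (median log2 change -0.22), and with clofibrate 14 fell and 0 rose (median -0.30). The median over all tested genes was -0.04 in either comparison, and 0.85% of them fell with permethrin and 3.8% with clofibrate. Of genes with a mean signal above 1000, 3.44% and 18.9% fell. Below 0 lay 27 of the 33 with permethrin and 25 with clofibrate. Hal, which starts histidine breakdown, had 1165, 1221 and 1017 with permethrin, 723.3, 967.3 and 1133 with clofibrate, and 2297, 1992 and 2208 in controls. Every treated liver lay below every control, with log2 changes of -0.93 ± 0.15 and -1.22 ± 0.15 (limma adjusted p = 0.012 and 0.000874). Amdhd1 and Uroc1, enzymes of the same pathway, fell as well, at log2 changes of -0.69 and -0.65 with permethrin and -0.67 and -0.75 with clofibrate. Cbs and Agxt, which act on homocysteine and glyoxylate, fell with both diets too (-0.71 and -0.80 with permethrin, -0.69 and -0.93 with clofibrate). Cth, next to Cbs in cysteine synthesis, fell with clofibrate (-0.92 ± 0.19, limma adjusted p = 0.0173), and its permethrin value was -0.57 ± 0.19 (limma adjusted p = 0.202).

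**Figure D4:**
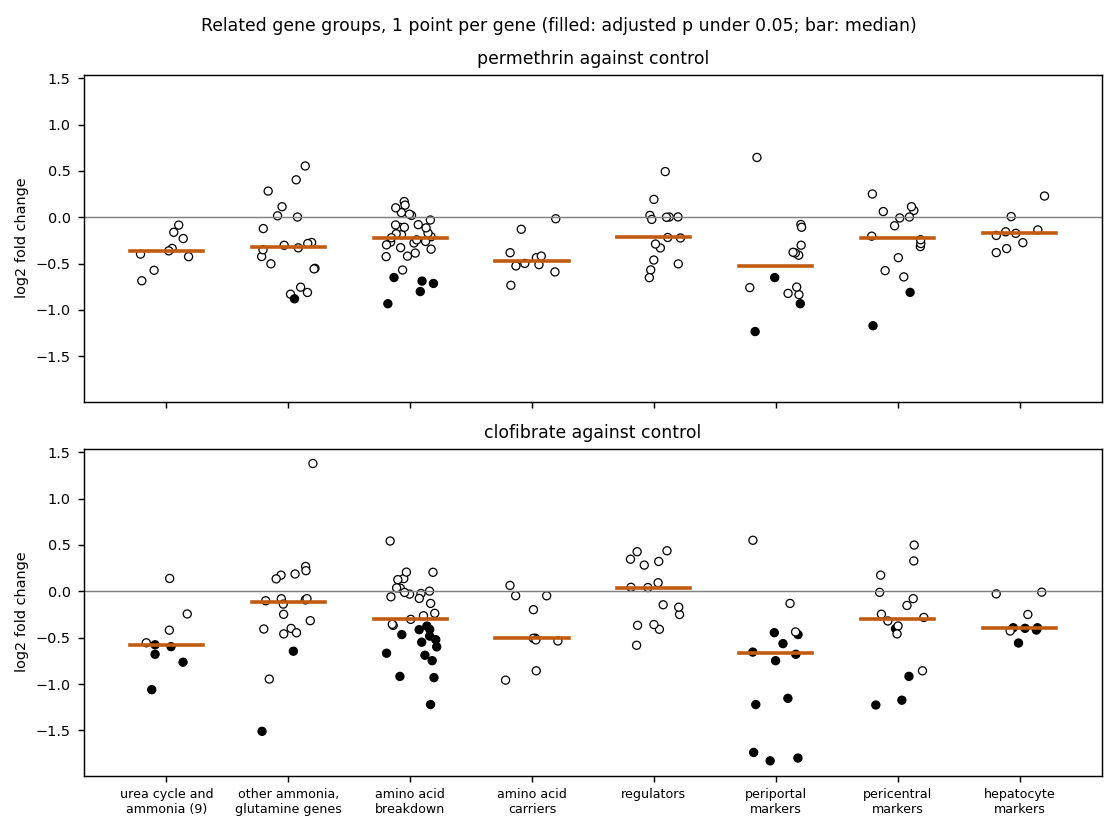
Log2 fold change of every tested gene in 8 groups, 1 point per gene, for each treated diet against control, with filled points past a limma adjusted p of 0.05 and a bar at the group median. With clofibrate, filled points in all 8 groups lie below 0 wherever they occur, and on arrays scaled by the hybridization controls the median gene sits 0.33 higher.

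Some markers of hepatocyte zones and of hepatocytes as a whole also fell, and their part in the members' result was not tested. Of 14 periportal markers other than the members, 3 fell with permethrin and 11 with clofibrate, with 0 called higher (median log2 changes -0.53 and -0.67). In each comparison 13 of the 14 lay below 0. Of 16 pericentral markers 2 fell with permethrin and 4 with clofibrate, with 0 called higher (medians -0.22 and -0.30). Below 0 lay 11 of the 16 with permethrin and 13 with clofibrate, beside 56.3% and 55.3% of all tested genes. Among all tested genes, 0.85% fell with permethrin and 3.8% with clofibrate. For genes with a mean signal above 1000 these shares were 3.44% and 18.9%, and above 3000 they were 1.9% and 30.9%. Periportal Apoa4, a lipoprotein component, fell with both diets, at log2 changes of -1.23 with permethrin and -1.74 with clofibrate. Cdh1, E-cadherin, Etnppl, which breaks down phosphoethanolamine, and Aldh1b1, an aldehyde dehydrogenase, fell with clofibrate (log2 changes -1.83, -1.80 and -1.15), while their permethrin values of -0.82, -0.76 and -0.83 did not pass. Among pericentral markers Gulo, of vitamin C synthesis, and Lect2, a secreted factor, fell with permethrin (-1.17 and -0.81) and with clofibrate (-1.23 and -1.17). Cyp1a2 and Cyp27a1, cytochromes P450, fell with clofibrate (-0.92 and -0.40), with permethrin values of -0.58 and -0.01 that did not pass. Of 9 hepatocyte markers 0 fell with permethrin by limma, and 3 had an unadjusted p under 0.05, beside 15.8% of all tested genes. The medians of these markers were -0.17 with permethrin and -0.39 with clofibrate, where 5 fell. The 5 were the plasma proteins Alb (-0.42 ± 0.09, limma adjusted p = 0.0248), Ahsg, Apoa1, F2 and Fgb, the others at -0.56 to -0.39. The summed signal of the 9 markers was 63330 to 67840 with permethrin, 50940 to 63230 with clofibrate and 72030 to 76770 in controls. The lists share 8 genes, Hal and Glul included, so their counts are not independent.

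Markers of other cells gave few calls. The 10 macrophage markers, 8 sinusoidal endothelial, 10 stellate and fibroblast, 3 cholangiocyte, 5 leukocyte and 2 erythroid markers tested gave 0 calls by limma in either comparison with control. At an unadjusted p under 0.05 there were 2 endothelial and 4 stellate markers with permethrin, and 4 and 3 with clofibrate. Among all tested genes 15.8% with permethrin and 21% with clofibrate had such a p. The summed signal of the endothelial list was 1787 to 1988 with permethrin, 1609 to 1677 with clofibrate and 1982 to 2233 in controls, and that of the macrophage list was 3141 to 6743 with permethrin, 3625 to 4999 with clofibrate and 3664 to 4407 in controls. Of 5 pancreatic acinar markers 1 fell with each diet, the elastase Cela1, which the liver arrays read at 207 ± 69.2 with permethrin, 200 ± 18.7 with clofibrate and 1295 ± 189 in controls (SD, n = 3). As a check of the fibrate diet, 9 of 9 tested PPAR alpha response genes rose with clofibrate, and 8 of 9 with permethrin, led in both by Cd36, Vnn1 and Acot1, of fatty acid uptake, coenzyme A recycling and fatty acyl-CoA hydrolysis. Among all tested genes 3.22% rose with clofibrate and 1.28% with permethrin.

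By a fixed rule, the genes most like a member were those with the smallest root mean square difference from it over the 9 arrays, on log2 signals centred per gene, among 12457 candidates. For Asl, whose centred values spanned 1.43 log2 units, these were Apom, Enpep, Tpcn1 and Tkfc, at differences of 0.135 to 0.144. Apom, the carrier of sphingosine 1-phosphate in HDL, fell with clofibrate (-0.85, limma adjusted p = 0.00683), as did Enpep, an aminopeptidase (-1.25, limma adjusted p = 0.000458), Tpcn1, an ion channel of endosomes and lysosomes (-0.90, limma adjusted p = 0.00193), and Tkfc, which phosphorylates glyceraldehyde from fructose (-1.05, limma adjusted p = 0.000765). With permethrin Enpep and Tkfc also fell (-0.74 and -0.64, limma adjusted p = 0.024 and 0.0328), while Apom had -0.40 and Tpcn1 -0.46 (limma adjusted p = 0.252 and 0.112). These genes were picked for their likeness to Asl over the same arrays, so their values describe the choice and are no separate evidence. For Ass1 they were Stat3, Ung, Dgkeos and Gmeb1, at 0.181 to 0.207, and 0 of these passed the threshold in either comparison with control. Ass1 was used because its permethrin value was the largest in size, and it is dim.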

How the data were processed

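The deposited values are 1 linear signal intensity per probe set and array, made with MAS5 per the submitters' processing notes; its version is not given in the sources used here. Per the labels' protocols, biotin-labelled cRNA came from 5 ug of total RNA. The trimmed mean of every array, leaving out 2% at either end, was 100.001. The table holds 45101 probe sets, of which 64 are array controls, 34945 carry 1 gene symbol, 932 several and 9160 none that was used. For 34741 of those with 1 symbol the current symbol was looked up by Entrez identifier, whether or not it had changed. Signals plus an offset of 3.35, their 20th percentile, were log2-transformed, and the 24546 probe sets above 15.6, the median, in at least 3 arrays were tested. All 9 arrays entered 1 fit in limma 3.58.1 (R 4.3.3) with an intensity trend, tested two-sided, and Benjamini-Hochberg adjustment over all tested probe sets at 0.05. Fold changes are on the log2(signal + offset) scale, and ± after them is the standard error.

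The members and the other lists, 16 in all with 188 of 211 symbols measured, were chosen with earlier results of these data known. All members were named. From each other list, up to 6 called genes with the largest changes and 10 preset genes were named; Hal and Glul are also named to identify an overlap. Alternatives changed 1 choice at a time; scaling to the hepatocyte markers was added after seeing the data. Replicate numbers in the titles are not stated to pair animals. Residuals of same-numbered arrays correlated at -0.109 to 0.113, which gave no ground for a paired main model. Labels call the replicates biological, 1 mouse each, and their number limits the precision. No 2 arrays shared more than 1 identical signal. No scan or preparation batch was used here. Coordinates come only from the RefSeq promoter table.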

Additional observations from a re-analysis of the deposited data

How the results depend on the processing

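Across 27 alternative settings, the number of members called with clofibrate against control was 5 in the reported fit and 1 to 6 elsewhere. It was 2 after centring arrays on their median, 1 after scaling to the hybridization controls, 3 after scaling to the hepatocyte markers and 3 without the intensity trend, where Slc25a15 and Glud1 were lost (limma adjusted p = 0.0607 and 0.0629), and it was 5 to 5 when any 1 array was left out. Of the 27 settings Asl was called in 27, Otc in 26, Cps1 in 25, Glud1 in 23 and Slc25a15 in 21. With permethrin against control 0 members were called, but 1 with array weights (Cps1, limma adjusted p = 0.0477), 1 in a fit of only the 2 groups compared (Asl, limma adjusted p = 0.0388), and 0 to 1 with 1 array left out: Cps1 without clofibrate replicate 1 (limma adjusted p = 0.044) and Asl without clofibrate replicate 2 (limma adjusted p = 0.0351). Between the 2 treated diets the count was 0 throughout. With the replicate number as a block, the counts were 0 for permethrin, 5 for clofibrate and 0 between them, so the block changed no count. None of the log2 changes that turned sign was called in the comparison concerned. For Arg1, permethrin over clofibrate was -0.033 with quantile normalization, -0.041 with cyclic loess, -0.105 with hybridization controls and -0.080 with hepatocyte markers, and clofibrate over control was 0.090 and 0.075 under the last 2. For Slc25a13, permethrin over control was 0.021 with median centring, 0.062 with hybridization controls and 0.073 with hepatocyte markers, and ran from -0.187 to 0.016 with 1 array left out, when clofibrate over control ran from -0.045 to 0.240. For permethrin over clofibrate, Nags was 0.015 with median centring, 0.028 with array weights and -0.053 to 0.040 with 1 array left out; Ass1 was 0.0019 with array weights and -0.415 to 0.243 with 1 array left out; and Slc25a15 was -0.10 as the mean of its probe sets. The cause of these changes was not tested. The dim Ass1 signal, with 30.6 ± 6.71 for permethrin, 36.2 ± 19.4 for clofibrate and 52.5 ± 18.2 for control (SD, n = 3), limits what can be said of that gene.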
